A study of Mus musculus with 20 samples.

Results

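Cadherins are calcium-dependent adhesion molecules of the cell surface. In the RNA table of cultured mouse neurons, 36 of 21937 gene symbols consisted of Cdh or Pcdh, a number and at most 1 further letter, and these 36 were taken as the members: 24 cadherin and 12 protocadherin symbols. All were chosen by name and not by a measured value, though with earlier results of these data known. The members are wider than classical cadherins and non-clustered protocadherins in the strict sense. Cdh13, Cdh16, Cdh17, Cdh23, Cdh26 and Pcdh15 have other structures, and Cdh29 is an older symbol of Cdhr4, a cadherin-related gene.

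The RNA was from neurons at day 10 (cell type label Day10 Neurons, strain label 159.2), in cultures that shared every label but the treatment. The NMDA group had received 200 µM NMDA, an agonist of a class of glutamate receptors, for 6 h, and the Control group DMSO alone for the same 6 h; both were washed in a salt solution before and after. Each group held 2 libraries, with 20.1 M and 16.8 M reads recovered for NMDA and 20.1 M and 15.0 M for Control. Whether the pair of libraries in a group stands for separate cultures is not given in the labels, so each p-value reflects a spread between libraries that could be technical. Chromatin was also profiled in the study, but its tables give no gene for a region and were not used here.

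In classical cadherins the extracellular repeats join cells to each other, mostly like to like, and the cytoplasmic tail binds β-catenin and, through α-catenin, the actin cytoskeleton. Type I members such as N-cadherin make strong junctions, and type II members are laid out in combinations that differ between neuron types and help axons and synapses find partners. The non-clustered protocadherins of the delta-1 and delta-2 classes adhere weakly, lack the catenin-binding tail and act in neurite growth and synapse formation; several delta-2 members bind the WAVE complex, which drives actin branching.

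Values below are normalised read counts. A gene was tested with limma on log2(count + 1) where its mean over the 4 libraries was at least 10, and it passed at a Benjamini-Hochberg adjusted p under 0.05 over all 13888 genes tested. Differences are NMDA minus Control on that scale, with their standard error, and are understated for low genes. With 2 libraries against 2, an exact permutation test of a single gene cannot go below p = 0.333.

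The defining neuron genes Tubb3, Stmn2, Dcx and Snap25 were abundant, each with at least 9264 counts in every library. Of 10 neuron markers tested, 1 rose and 3 fell, where 20.5% of all genes tested rose and 21.5% fell. The summed count of the markers was 104412 and 92608 in the NMDA libraries, against 108370 and 112784 in the Control libraries. With 1 library left out, 0 or 1 rose and 1 to 5 fell, the most without NMDA replicate 1 and the fewest without Control replicate 1; DESeq2 called 4 lower and 0 higher. Transcripts that mark other cell types were also present. All 11 markers of neural progenitors and radial glia rose, with sums of 31856 and 43340 in NMDA and 18133 and 21487 in Control (5 of 11 passed without Control replicate 1). Of 6 astrocyte markers 4 rose, and 1 to 5 with 1 library left out, the fewest without Control replicate 1. Of 12 fibroblast and mesenchyme markers 11 rose, with sums of 233617 and 314732 against 127227 and 116551 in Control. In bulk RNA, fewer cells of a type and less RNA per cell cannot be told apart, and the part of these shifts in the results below was not tested.

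Of the 36 members, 30 were tested: 4 rose and 12 fell. Over all genes tested, 20.5% rose and 21.5% fell, which was 2845 and 2979 genes (1069 and 915 without Control replicate 1, 1455 and 1391 without Control replicate 2). The members' 13.3% risen and 40.0% fallen lay below and above these shares. Their median difference was -0.31, against -0.01 over all genes. The 4 that rose were Cdh2, Cdh3, Cdh11 and Pcdh18. The 12 that fell were Cdh7, Cdh8, Cdh12, Cdh18, Cdh24, Pcdh1, Pcdh7, Pcdh9, Pcdh11x, Pcdh15, Pcdh17 and Pcdh19. Both NMDA libraries lay below both Control libraries for 19 of the 30, against 37.8% of all genes, and above them for 5, against 36.6%. Among the 11 protocadherins tested 7 fell and 1 rose, and among the 19 cadherins 5 fell and 3 rose; the difference between the families was not tested. With 1 library left out, 5 to 8 protocadherins fell and 1 rose, and 3 to 8 cadherins fell and 2 to 5 rose, with the most falls without NMDA replicate 1 and the fewest without Control replicate 1. Summed over the 12 that fell, the counts were 15857 and 12990 in NMDA and 26241 and 25210 in Control. All 12 were lower in NMDA replicate 2 than in NMDA replicate 1. So were 2 of the 4 that rose, 9 of the 14 that did not pass and 7056 of the 13888 genes. Replicate 2 was also the NMDA library with the lower neuron sum and the higher progenitor and fibroblast sums. Whether these are linked was not tested.

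**Figure D1:**
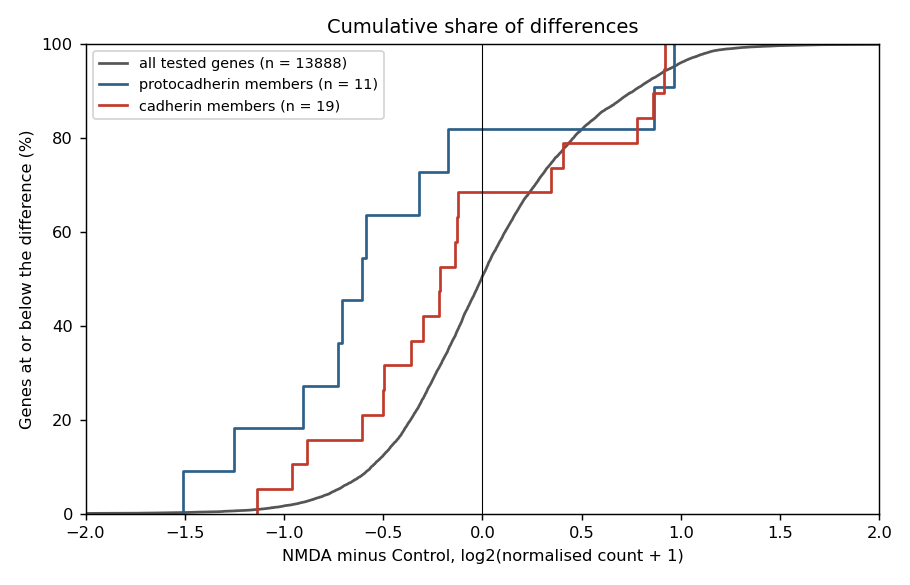
Cumulative share of genes (y axis, percent) at or below each NMDA minus Control difference (x axis, log2 of normalised count + 1) for the 11 tested protocadherin members, the 19 tested cadherin members and all 13888 tested genes. The protocadherin line lies left of the line of all genes over most of its course (median -0.60) and the cadherin line less far to the left (median -0.21).

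**Figure D2:**
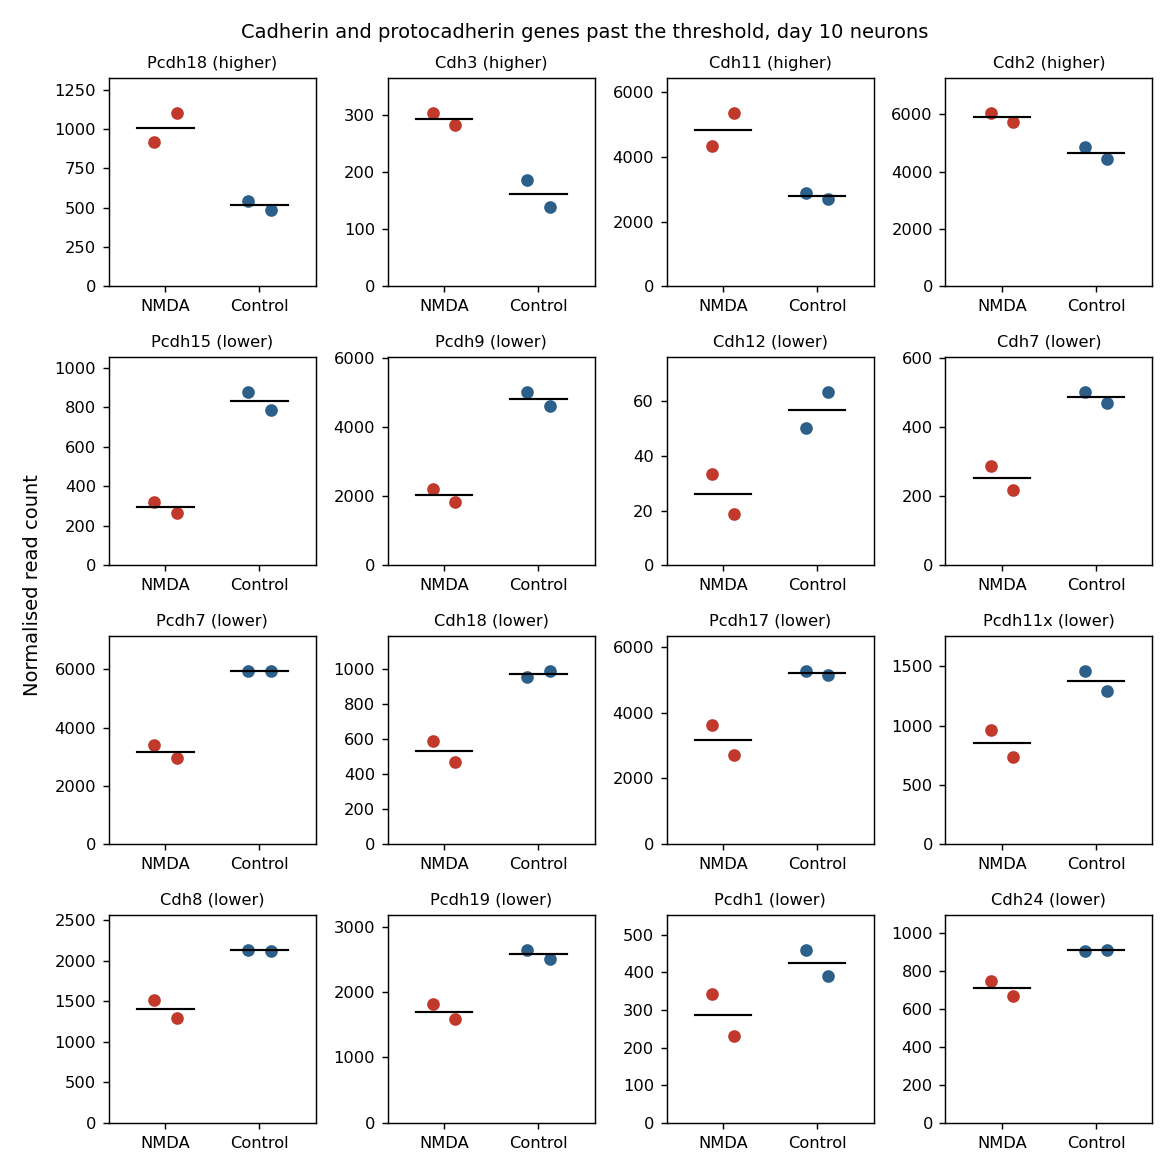
Normalised read counts (y axis, linear from 0, its own range in each panel) of the 16 members past the threshold; each point is 1 library, the horizontal line is the mean of 2, and NMDA stands left of Control. The panels show 4 genes higher and 12 lower in NMDA. Their NMDA and Control points do not overlap, which adds no support, since the test on these libraries picked the genes. Over all tested genes, 36.6% had both NMDA libraries above both Control libraries and 37.8% had both below.

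Type I cadherins were the class with the largest share of rises, 2 of 4 tested, and 0 fell (3 rises without NMDA replicate 1, 1 rise without Control replicate 1, and 1 fall without NMDA replicate 2). Cdh2, which encodes N-cadherin of progenitor junctions and of synapses, had 6049 and 5747 counts in the NMDA libraries, against 4869 and 4432 in the Control libraries. Its difference was 0.34 ± 0.09 (limma adjusted p = 0.0146), a call that failed when either Control library was left out (0.0864 without replicate 1, 0.192 without replicate 2). Cdh3, P-cadherin of epithelia and some mesenchyme, had 304 and 282 in NMDA and 186 and 139 in Control, a rise of 0.86 ± 0.16 (limma adjusted p = 0.00416). Both NMDA libraries of these genes stood above both Control libraries. Cdh4, R-cadherin of the retina and brain, had 1916 and 2318 in NMDA and 2261 and 2333 in Control; the groups overlapped, and the 95% interval of the difference ran from -0.36 to 0.11. Without NMDA replicate 2 it passed as a fall (-0.26, limma adjusted p = 0.0416).

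Cdh1, E-cadherin of epithelia, had 79.0 and 139.5 counts in NMDA, against 38.6 and 79.0 in Control, with a difference of 0.91 ± 0.37 that did not pass (limma adjusted p = 0.0753). The groups overlapped by a narrow margin, and replicate 2 was the higher library in both. The epithelial and endoderm markers were split in the same way, with summed counts of 399 and 1163 in NMDA and 284 and 562 in Control, and 1 of 9 passed, Krt19; their part in the Cdh1 values was not tested. Cdh1 passed without NMDA replicate 1 (limma adjusted p = 0.0278) or Control replicate 2 (0.0359), and 6 of the 9 markers passed without NMDA replicate 1. Cdh15, M-cadherin of muscle, had at most 1 read in any library and was not tested.

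Type II cadherins gave 5 falls and 1 rise among 12 tested, with 3 falls when NMDA replicate 2, Control replicate 1 or Control replicate 2 was left out and 2 rises without NMDA replicate 1. Cdh7, which marks groups of neurons in brain and spinal cord, had 287 and 218 counts in NMDA, against 503 and 472 in Control. It fell by 0.96 ± 0.14 on the log2 scale (limma adjusted p = 0.00177). Cdh18 had 591 and 470 in NMDA and 955 and 990 in Control, a fall of 0.88 ± 0.12. Cdh8, a cadherin of cortical and striatal neurons, had 1511 and 1291 in NMDA and 2137 and 2117 in Control, a fall of 0.61 ± 0.10. For these 3 genes the distance between the groups was larger than the distance between libraries of a group, and their calls held under all 12 alternatives tried.

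Cdh12, a brain cadherin, had the widest interval among the falls. Its counts were 33.4 and 18.9 in NMDA, against 50.3 and 63.5 in Control (log2 difference -1.14 ± 0.32, limma adjusted p = 0.0215). It rested on 18 to 56 reads per library, and the call was lost with DESeq2 (adjusted p = 0.0722) and without NMDA replicate 2 (-0.74, limma adjusted p = 0.0806), Control replicate 1 (0.0851) or Control replicate 2 (0.154). Cdh24 fell less, with 750 and 671 counts in NMDA and 909 and 914 in Control (-0.36 ± 0.09, limma adjusted p = 0.0158). Its call was lost without NMDA replicate 2 (0.0541), Control replicate 1 (0.121) or Control replicate 2 (0.109).

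Cdh11, the cadherin of osteoblasts and mesenchyme that some neurons also carry, was the type II member that rose. It had 4338 and 5361 counts in NMDA, against 2903 and 2714 in Control, a rise of 0.78 ± 0.11 (limma adjusted p = 0.00139) that held under all 12 alternatives. Both NMDA libraries stood well above both Control libraries, and replicate 2, the NMDA library with the higher sum of fibroblast markers, had the higher Cdh11 count. The part of those cells was not tested. Cdh5, VE-cadherin of endothelium, had 39.5 and 97.6 in NMDA and 24.2 and 43.1 in Control. The groups overlapped and the gene did not pass (0.92 ± 0.43, limma adjusted p = 0.119), but it did without NMDA replicate 1 (1.56, limma adjusted p = 0.0114). Of 8 endothelial markers 6 were tested and 1, Kdr, rose; their summed count was 494 and 757 in NMDA and 391 and 422 in Control. The order of the replicates seen in Cdh5, with replicate 2 the higher in both groups, held for Flt1, Tek and Emcn and not for Kdr, Pecam1 and Esam. Of the 8 markers, Cldn5 was at 0 in every library, while the 6 tested ones had counts in every library. The part of endothelial cells in the Cdh5 values was not tested.

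The other type II members did not pass. Cdh6 had 486 and 501 counts in NMDA, against 612 and 541 in Control, and Cdh10, which with Cdh6 marks subsets of retinal ganglion cells in mice, had 973 and 980 against 1068 and 1081 in Control. The 95% interval of Cdh10 ran from -0.33 to 0.05. Cdh22 had 683 and 636 in NMDA and 689 and 848 in Control. Cdh9, which guides hippocampal synapses in mice, had 86.9 and 72.4 against 86.2 and 87.4 in Control, with an interval from -0.56 to 0.30. In Cdh6, Cdh10 and Cdh22 both NMDA libraries were the lower ones, and in Cdh9 the groups overlapped. Cdh20 had 82.5 and 59.8 in NMDA, against 95.2 and 104 in Control (-0.50 ± 0.21, limma adjusted p = 0.0903). It passed with quantile normalisation (0.0499) or without NMDA replicate 1 (0.0275). Cdh19, of the Schwann cell lineage, had 0 reads in both NMDA libraries and 1 and 2 in Control and was not tested.

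**Figure D3:**
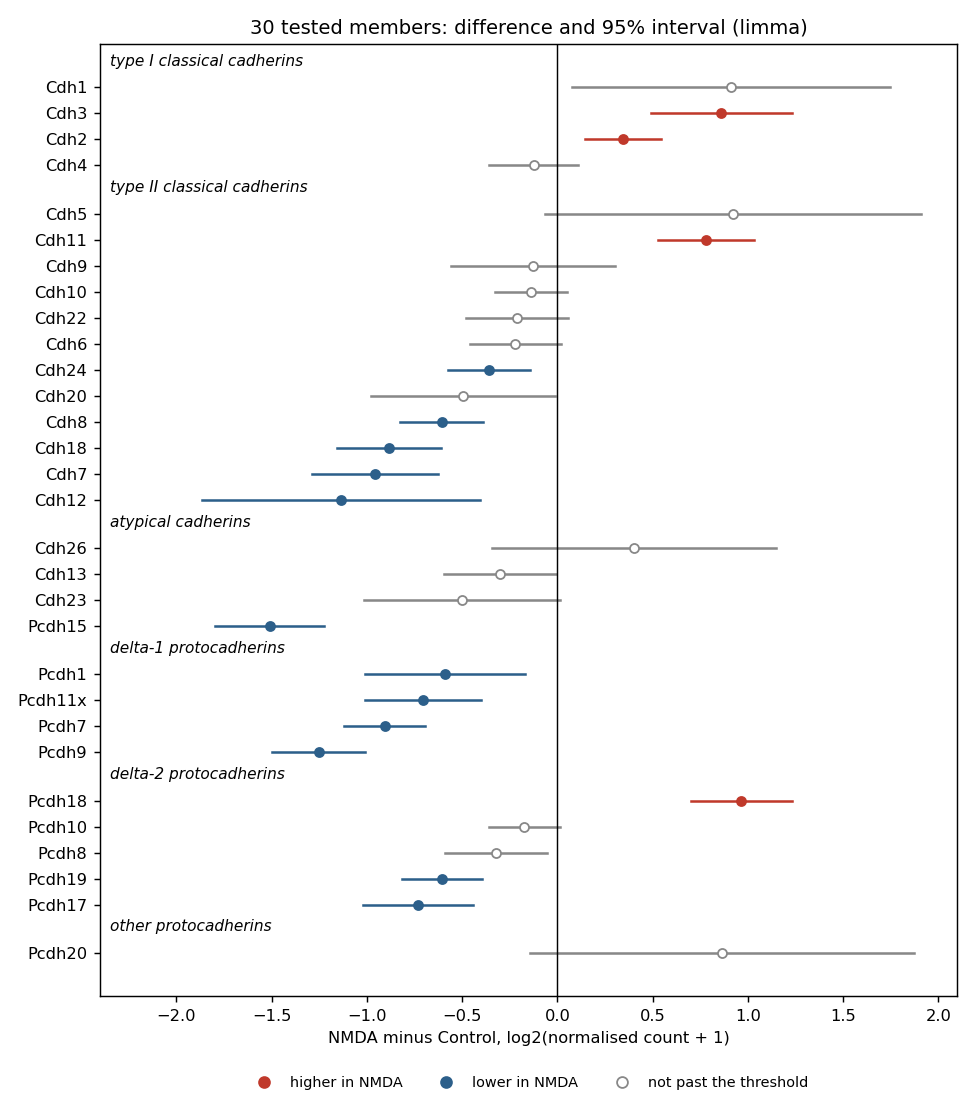
NMDA minus Control difference (x axis, log2 of normalised count + 1) of the 30 tested members, grouped by class; points are limma estimates, bars are 95% intervals, filled points passed at an adjusted p under 0.05. All 4 delta-1 protocadherins are lower in NMDA, while the delta-2 class runs from -0.73 (Pcdh17) to 0.97 (Pcdh18).

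Among the cadherins of atypical structure Pcdh15 fell and 3 tested genes did not pass (3 falls without NMDA replicate 1, 2 without Control replicate 2). Pcdh15 pairs with Cdh23 in the tip links of inner ear hair cells and is also made in brain. It had 322 and 263 counts in NMDA, against 879 and 787 in Control, a fall to 35.2% of the Control mean. The log2 difference was -1.51 ± 0.13 (limma adjusted p = 0.000565), rank 37 from the lowest among the 13888 genes tested. Over the 12 alternatives it ran from -1.66 to -1.37. Cdh23 itself had 338 and 232 in NMDA and 490 and 321 in Control; the groups overlapped and it did not pass (-0.50 ± 0.23, limma adjusted p = 0.107). It did pass without NMDA replicate 1 (-0.77, limma adjusted p = 0.0288) and without Control replicate 2 (-0.81, 0.0493). Whether Pcdh15 fell more than Cdh23 was not tested.

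Of 5 tested genes whose proteins work with Cdh23 and Pcdh15 in hair cells, limma called 0, where 20.5% of all genes rose and 21.5% fell. Both edgeR and DESeq2 called 0 as well. At an unadjusted p under 0.05 limma also called 0, against 3473 higher and 3581 lower of all 13888 genes tested. Tmie, 1 of the 5, reached the filter only through its NMDA libraries, with a mean of 13.9 in NMDA and 8.1 in Control. Myo7a, a myosin, had 262 and 242 in NMDA and 246 and 296 in Control, and Whrn, a scaffold, 509 and 485 against 449 and 407 in Control. Cdh13, T-cadherin, is held in the membrane by a lipid anchor and has no cytoplasmic tail. It had 3728 and 2833 counts in NMDA, against 4235 and 3789 in Control (-0.30 ± 0.13, limma adjusted p = 0.0931), with both NMDA libraries the lower ones. It passed without NMDA replicate 1 (-0.50, limma adjusted p = 0.00393). Cdh26 had 39.5 and 27.3 against 29.6 and 20.4 in Control, with overlap and an interval from -0.34 to 1.15. Cdh16 of kidney and Cdh17 of liver and intestine had at most 7 reads in a library and were not tested.

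All 4 delta-1 protocadherins fell. Pcdh9, a protocadherin of cortical neurons, had 2215 and 1830 counts in NMDA, against 5010 and 4596 in Control, or 42.1% of the Control mean. Its log2 difference was -1.25 ± 0.11 (limma adjusted p = 0.000565), rank 83 from the lowest of all genes tested. Pcdh7, which acts in the growth of axons, had 3407 and 2948 in NMDA and 5949 and 5931 in Control (-0.91 ± 0.09, limma adjusted p = 0.000703). In both genes the NMDA libraries lay far below the Control libraries, and the libraries of a group lay close together. Pcdh11x, on the X chromosome, had 966 and 733 against 1462 and 1291 in Control (-0.71 ± 0.13, limma adjusted p = 0.00420). Its call was lost without Control replicate 1 (0.0628). Pcdh1, which is made in brain and in airway epithelium, had the largest adjusted p of the class, with 342 and 231 in NMDA and 461 and 389 in Control (-0.59 ± 0.18, limma adjusted p = 0.0321). The call was lost without Control replicate 1 (0.224), Control replicate 2 (0.0738) or NMDA replicate 2, where the difference shrank to -0.31 (0.132). Without Control replicate 1 the class had 2 falls. Of all 30 members 3, Pcdh15, Pcdh9 and Cdh12, fell by 2-fold or more, against 1.50% of all genes, and 0 rose by 2-fold, against 3.56%. These counts depended on single libraries. Without NMDA replicate 1 there were 6 such falls, with Cdh7, Cdh18 and Pcdh7 added, and 3 such rises, Cdh1, Cdh5 and Pcdh18. There were 2 falls each without NMDA replicate 2 or Control replicate 1, 2 rises (Cdh3 and Pcdh18) without Control replicate 1, and 1 rise (Cdh1) without Control replicate 2. Pcdh15 and Pcdh9 fell by 2-fold or more whichever library was left out.

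The delta-2 protocadherins went apart: 1 rose, 2 fell and 2 did not pass (3 falls without NMDA replicate 1). Their upstream sequences are printed because they let members of 1 class with different responses be set side by side. They are RefSeq sequence of build GRCm38.p6, at most 250 bases before a listed start and outside the span of the gene, 5′ to 3′ on the strand of the gene, with CG steps in capitals. In order they lie at chr3:49757384-49757566 (minus strand), chr14:84443313-84443562 (plus), chrX:133689045-133689243 (minus), chr3:45378148-45378397 (plus) and chr14:79771313-79771562 (minus).
Pcdh18 (rose): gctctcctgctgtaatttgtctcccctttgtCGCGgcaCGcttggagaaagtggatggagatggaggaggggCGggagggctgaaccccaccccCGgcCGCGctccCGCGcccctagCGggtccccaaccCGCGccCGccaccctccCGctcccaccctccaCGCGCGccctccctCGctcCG
Pcdh17 (fell): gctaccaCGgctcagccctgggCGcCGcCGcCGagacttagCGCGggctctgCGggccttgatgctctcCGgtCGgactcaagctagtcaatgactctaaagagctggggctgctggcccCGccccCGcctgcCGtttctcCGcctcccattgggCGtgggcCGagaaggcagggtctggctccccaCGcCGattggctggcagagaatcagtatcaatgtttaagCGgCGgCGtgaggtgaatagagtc
Pcdh19 (fell): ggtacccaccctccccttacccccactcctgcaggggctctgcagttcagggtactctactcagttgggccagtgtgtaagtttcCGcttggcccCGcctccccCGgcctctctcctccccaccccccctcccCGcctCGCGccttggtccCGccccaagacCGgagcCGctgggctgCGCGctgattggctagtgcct
Pcdh10 (did not pass): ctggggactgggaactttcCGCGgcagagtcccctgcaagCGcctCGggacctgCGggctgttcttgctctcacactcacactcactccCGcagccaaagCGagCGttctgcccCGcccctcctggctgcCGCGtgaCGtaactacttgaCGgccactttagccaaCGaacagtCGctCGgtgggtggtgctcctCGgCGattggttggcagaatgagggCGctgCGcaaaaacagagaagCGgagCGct
Pcdh8 (did not pass): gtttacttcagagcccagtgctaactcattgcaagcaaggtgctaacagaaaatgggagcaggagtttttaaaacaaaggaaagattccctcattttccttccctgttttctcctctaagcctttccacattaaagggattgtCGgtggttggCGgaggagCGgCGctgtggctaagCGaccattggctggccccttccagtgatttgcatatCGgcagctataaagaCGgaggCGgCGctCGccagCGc

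Pcdh18 rose. It had 916 and 1100 counts in NMDA, against 543 and 485 in Control, or 196% of the Control mean (0.97 ± 0.12, limma adjusted p = 0.000875). Pcdh17, a protein of synapses in the mouse basal ganglia, had 3622 and 2726 in NMDA and 5280 and 5147 in Control (-0.73 ± 0.13, limma adjusted p = 0.00295). Pcdh19, which is mutated in an X-linked epilepsy in humans, had 1810 and 1589 in NMDA and 2648 and 2512 in Control (-0.60 ± 0.09, limma adjusted p = 0.00178). The groups were apart in all 3 genes, and their calls held under all 12 alternatives. Pcdh10, needed for the growth of striatal axons in mice, had 3118 and 2930 in NMDA and 3491 and 3334 in Control (-0.17 ± 0.08, limma adjusted p = 0.118). Pcdh8, named arcadlin in the rat and known there as induced by synaptic activity, had 1376 and 1119 in NMDA and 1664 and 1445 in Control. Both NMDA libraries were the lower ones, with a 95% interval of the difference from -0.59 to -0.05 (limma adjusted p = 0.0569). Pcdh8 passed as a fall without NMDA replicate 1 (limma adjusted p = 0.00930).

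The printed upstream stretches held 19 CG steps in 183 bases for Pcdh18, 21 in 250 for Pcdh17, 11 in 199 for Pcdh19, 22 in 250 for Pcdh10 and 11 in 250 for Pcdh8. Per base of these stretches of unequal length, Pcdh18, the gene that rose, had the most and Pcdh8 the fewest. In the whole 300-base RefSeq windows, which reach from 250 bases before to 50 after a listed start, 22 of the 36 members had at least 1 window, 25 in all. In these windows of equal length the order differed, with 26 CG steps for Pcdh17, 24 for Pcdh10, 23 for Pcdh18, 18 for Pcdh19 and 14 for Pcdh8. The median was 14 CG steps per window for the members and 7 over all 32851 windows, and the median GC content was 60.3% and 52.7%. Windows of members that fell, 13 from 10 genes, had a median of 18 CG steps. The median was 8 in windows of tested members that did not pass. The 1 window of a member that rose, that of Pcdh18, held 23, and no test was made.

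3 motifs were sought on both strands in these windows. Of the 4 members that rose, only Pcdh18 had a window. The AP-1 motif TGANTCA was in 0 of the 25 windows and in 7.81% of all windows. The CRE motif TGACGTCA, known for CREB, was in 0 of 25 and in 1.79% of all. The E-box CACCTG, known for the Zeb and Snail repressors, was in 5 of 25 windows and in 20.2% of all. The share among the members was 20%. Of those 5 windows 3 were alternative starts of Cdh7, and the others were of Pcdh7 and Pcdh15. These 3 genes fell, as did 10 of the 22 genes with a window, and the other 7 of those 10 held no match. A match to so short a motif does not show binding.

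The remaining protocadherins were low. Pcdh20 had 19.3 and 11.5 counts in NMDA, against 7.18 and 8.38 in Control (0.87 ± 0.44, limma adjusted p = 0.147). It reached the filter only through its NMDA libraries, and its counts rest on 7 to 22 reads per library. Pcdh12, of endothelium, had 3 reads in each NMDA library and 1 and 0 in Control, and Cdh29 had 8 and 5 against 8 and 4; neither was tested.

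Members that neighbour each other on a chromosome did not all move together (order from RefSeq, GRCm38.p6). On chromosome 8, Cdh8, Cdh11 and Cdh5 follow each other with 0 coding genes between, and Cdh8 fell, Cdh11 rose and Cdh5 did not pass. On the same chromosome Cdh3 and Cdh1 adjoin; Cdh3 rose and Cdh1 had a positive difference that did not pass. On chromosome 15 the run Cdh6, Cdh9, Cdh10, Cdh12 and Cdh18 holds 1 other coding gene. All 5 had negative differences (-0.22, -0.13, -0.14, -1.14 and -0.88 in that order), and only the last 2 passed. On chromosome 14, Pcdh17 and Pcdh9 fell, and Pcdh20, which adjoins Pcdh9, did not pass. Pcdh10 and Pcdh18 have 1 coding gene between them on chromosome 3, and only Pcdh18 passed.

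Genes that work with cadherins were split. The counts of each list stand beside 20.5% risen and 21.5% fallen over all genes tested. At an unadjusted p under 0.05, limma called 3473 of the 13888 genes higher and 3581 lower. Of 17 catenins and junction adaptors tested, 6 rose and 5 fell, with a median of 0.02. Ctnna1, the α-catenin of most tissues, had 1698 and 2201 counts in NMDA and 1068 and 1111 in Control (0.83 ± 0.12, limma adjusted p = 0.00159). Mllt4, which encodes afadin, had 1735 and 1683 against 2893 and 2838 in Control (-0.75 ± 0.08, limma adjusted p = 0.000705). Ctnnd2, a delta-catenin of neurons, had 3829 and 3186 against 5385 and 5159 in Control (-0.59 ± 0.10, limma adjusted p = 0.00290), a call lost without Control replicate 1 (0.0543). A further pair of genes was chosen after their values were seen. Ctnna2, the α-catenin of neurons, had 6169 and 5929 in NMDA and 7409 and 7525 in Control (-0.30 ± 0.08, limma adjusted p = 0.0189); its call was lost without Control replicate 1 (0.168) or 2 (0.178). Ctnnb1, β-catenin itself, had 11853 and 12896 against 10871 and 10760 in Control and did not pass (0.19 ± 0.09, limma adjusted p = 0.128), but did without NMDA replicate 1 (0.0288). The list had 3 rises and 1 fall without Control replicate 1 and 3 rises and 2 falls without Control replicate 2.

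**Figure D4:**
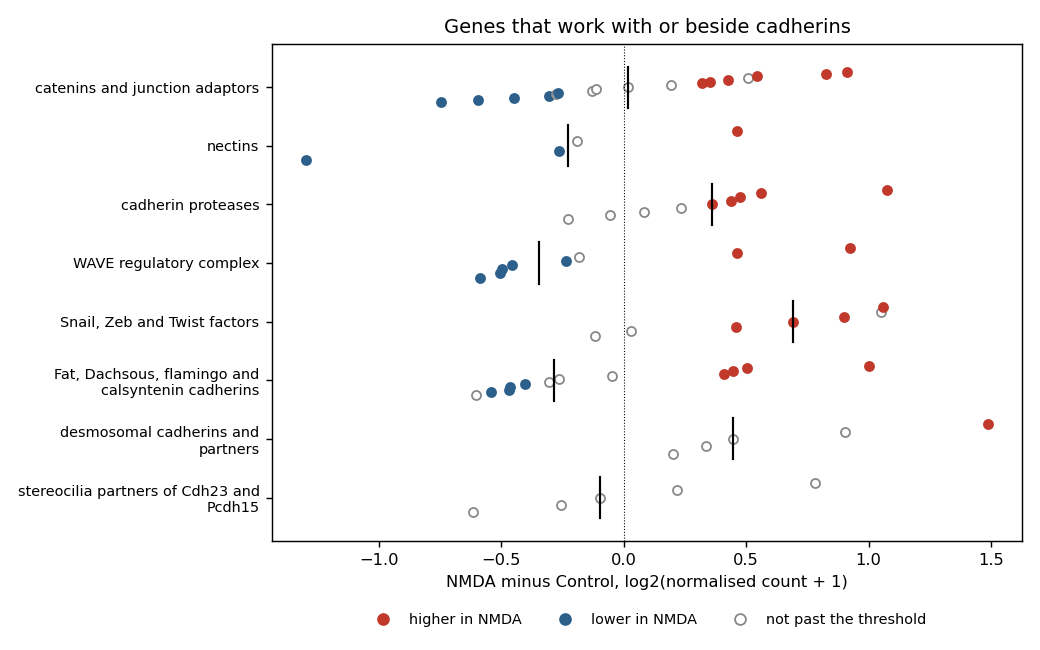
NMDA minus Control difference (x axis, log2 of normalised count + 1) of the tested genes of 8 lists; each point is 1 gene, filled where it passed at an adjusted p under 0.05, and the vertical bar is the median of the list. The protease list and the list of Snail, Zeb and Twist factors hold 5 and 4 rises and no fall, and the other lists are mixed or have few calls.

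Of 9 tested enzymes that cut cadherins or belong to the γ-secretase that follows, 5 rose and limma called 0 falls (0 at an unadjusted p under 0.05, and 0 by edgeR and DESeq2). Adam10, the sheddase of N-cadherin, had 2161 and 2305 counts in NMDA, against 1638 and 1577 in Control (0.47 ± 0.08, limma adjusted p = 0.00289). Adam17 had 697 and 752 against 352 and 334 in Control (1.08 ± 0.10, limma adjusted p = 0.000698), and the γ-secretase subunit Psenen rose by 0.56 ± 0.09. The list had 3 rises without Control replicate 1. Of 8 WAVE complex genes 5 fell and 2 rose. Wasf1, its neuronal form, had 2389 and 2345 in NMDA and 3283 and 3442 in Control (-0.51 ± 0.08, limma adjusted p = 0.00197), while Wasf2, the widely expressed form, had 339 and 380 against 187 and 190 in Control (0.92 ± 0.12, limma adjusted p = 0.00120). Abi2 fell by 0.50 ± 0.08, a call lost without Control replicate 1 (limma adjusted p = 0.0619). There was 1 fall and 1 rise without that library and there were 3 falls without Control replicate 2.

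Of 7 Snail, Zeb, Twist and Tcf3 factors, which include repressors of E-cadherin, 4 rose and limma called 0 falls (0 unadjusted, and 0 by edgeR and DESeq2), with 2 rises without Control replicate 1. Twist1 had 190 and 288 counts in NMDA and 123 and 102 in Control (1.06 ± 0.21, limma adjusted p = 0.00534). Tcf3 rose by 0.69 ± 0.12 and Zeb1 by 0.46 ± 0.10; the Zeb1 call was lost without Control replicate 1 (limma adjusted p = 0.0541) or 2 (0.0809). Mesenchymal cells and progenitors, whose markers rose in the same libraries, also make some of these factors, and their part was not tested.

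The giant and flamingo-type cadherins and calsyntenins gave 4 rises and 4 falls of 12. Fat1 had 7655 and 7376 counts in NMDA and 5642 and 4988 in Control (0.50 ± 0.09, limma adjusted p = 0.00377), a call lost without Control replicate 2 (0.0798). Celsr1 had 488 and 604 against 262 and 279 in Control (1.00 ± 0.13, limma adjusted p = 0.00110), and Fat3, a neuronal relative, had 1744 and 1882 against 2611 and 2664 in Control (-0.54 ± 0.08, limma adjusted p = 0.00177). The list had 1 fall without Control replicate 1, and 1 rise and 2 falls without Control replicate 2. Of the 4 nectins, partners of afadin, Pvrl2 rose by 0.46 ± 0.09. Pvrl3 fell by 0.26 ± 0.09. With all libraries kept, its call was lost with no filter (limma adjusted p = 0.054) or quantile normalisation (limma adjusted p = 0.0552). It was also lost with edgeR (edgeR adjusted p = 0.0532) and DESeq2 (DESeq2 adjusted p = 0.17). Pvrl4 fell by 1.30 ± 0.30, a call lost with DESeq2 (DESeq2 adjusted p = 0.0722). By limma 0 of these 3 calls held without either Control library (without Control replicate 1 or 2, adjusted p from 0.0560 to 0.229), and Pvrl3 also lost its call without either NMDA library (0.0847 and 0.0643). Of 5 desmosomal genes Dsc2 rose (1.49 ± 0.41, limma adjusted p = 0.0206). Its counts were low, with 19.3 and 33.6 in NMDA and 9.88 and 7.19 in Control. Dsc2 reached the filter of 10 only through its NMDA libraries, with a mean of 26.4 in NMDA and 8.5 in Control. DESeq2 called 0 rises in this list. The limma call on Dsc2 was lost without NMDA replicate 2, Control replicate 1 or Control replicate 2.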

How the data were processed

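RNA of 4 libraries, 2 treated with NMDA and 2 with DMSO, was analysed. The authors deposited a table of normalised read counts per gene symbol, a signal in which each library is divided by a size factor; Bowtie, TopHat, HTSeq, DESeq and the mm9 build are named, without versions, in the submitters' processing notes. Dividing by the value of 1 read gave whole reads for 99.98% or more of values, 15.0 to 20.1 M per library. The tolerance was 0.0051 on the scale of normalised counts. On these reads edgeR called 2905 genes higher and 2877 lower, and DESeq2 called 2249 higher and 2315 lower. The main test was limma-trend on log2(value + 1), for genes with a mean of at least 10, with a 2-sided Benjamini-Hochberg threshold of 0.05 over 13888 genes. Versions were R 4.3.3, limma 3.58.1, edgeR 4.0.16 and DESeq2 1.42.0.

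Members and gene lists were chosen with earlier results of these data known. Every tested member was named, and from each of 8 lists up to 3 genes with the smallest passing p, or, in a list with no such gene, its 2 most abundant genes. The sources used here do not state whether counting used strand. Levels were not compared between genes, since no lengths were used. The Map2 gene is not analysed here. The 12 alternatives were other pseudocounts, filters, normalisation, count tests, a replicate block and leaving out each library.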

Additional observations from a re-analysis of the deposited data

How the results depend on the processing

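Of the 16 members called, 11 were called under all 12 alternatives: Cdh3, Cdh11 and Pcdh18 higher, and Cdh7, Cdh8, Cdh18, Pcdh7, Pcdh9, Pcdh15, Pcdh17 and Pcdh19 lower. With 1 library left out, the lone library of its group was assumed to vary like the other group; 3 to 6 members then rose and 8 to 16 fell, against 4 and 12 with all libraries. Over all genes, 1069 to 3033 were higher and 915 to 3334 lower when 1 library was left out, the fewest without Control replicate 1. Differences that changed sign were those of Cdh4 (-0.26 to 0.013 over the libraries left out, positive without NMDA replicate 1), Cdh9 (-0.26 to 0.0018, positive without NMDA replicate 2) and Myo7a (-0.23 to 0.033, positive without Control replicate 2); the cause was not tested.

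With the replicate number as a block, 6 members were higher and 17 lower, and 3685 and 3782 of all genes. A block in 4 libraries leaves little spread to measure within a gene. The added calls lean on spread pooled over genes and do not show a gain in precision. The deviations of same-numbered libraries correlated across 11987 genes (r = 0.40, 2 pairs), but nothing in the labels ties the numbers together, so they were not taken as a pairing. The remaining alternatives gave 4 higher and 11 to 13 lower members. Depth limits the low members: Cdh12 and Pcdh20 rest on few reads, and the 6 members under a mean of 10 could not be tested. A 2-against-2 design gives wide intervals, so a member that did not pass was not shown to be the same in both groups.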
